A study of Mus musculus with 6 samples.

Results

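The Hippo pathway kinases and YAP effectors are 9 genes in whole mouse ovary: the kinases Stk3, Stk4, Lats1 and Lats2, the adaptor Sav1, the coactivators Yap1 and Wwtr1, the DNA-binding partner Tead1, and the angiomotin Amotl2. They were picked by symbol, with earlier results of these data known, from a table of 55487 genes, and all 9 were found and passed the filter on low counts that left 16957 genes for testing. RNA was sequenced from ovaries taken on postnatal day 49 from 3 wildtype and 3 GalTKO samples. GalTKO ovaries carry the genotype GalT-/-, the loss of galactose-1-phosphate uridylyltransferase, which in humans causes classic galactosemia. Both genotypes have the same strain label, cbl/6-ola/129, and both were kept for 4 weeks from weaning on food containing galactose at 2.5%, so no group without galactose enters the comparison. The labels name neither the construction of the allele, nor litter, nor estrous stage, nor whether a sample came from 1 animal, so p-values here measure the spread between these samples.

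The Hippo pathway is a chain of protein kinases that restrains tissue growth. The MST kinases, encoded by Stk4 and Stk3, work with the scaffold protein SAV1 to activate the LATS kinases. The LATS kinases then phosphorylate the coactivators YAP and TAZ (the product of Wwtr1) and keep them out of the nucleus. Free of that phosphorylation, YAP and TAZ bind TEAD proteins on DNA and switch on growth genes and, as a feedback, several inhibitors of the pathway, among them Lats2 and Amotl2. In the ovary the pathway is known for its part in the growth of follicles and the proliferation of granulosa cells. Its activity is set mainly by phosphorylation and protein location, which RNA counts do not measure.

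Libraries held from 19232486 to 25729564 counts. Mitochondrial genes took 1.37 to 1.97% of the counts in wildtype and 2.22 to 3.53% in GalTKO libraries, without overlap, and the part of this difference in the values of the members was not tested. Galt averaged 17.1 ± 0.904 CPM, the count relative to the scaled library size, in wildtype libraries but 0.138 ± 0.130 CPM in GalTKO libraries (SD, n = 3), so the labels match the targeted gene. Granulosa and oocyte markers were found in every library, with summed levels of 8327 to 10207 CPM over 10 granulosa markers and 274 to 406 CPM over 10 oocyte markers. The 9 members themselves were well covered, with from 1023 counts (Lats2 in GalTKO replicate 2) to 5929 counts (Tead1 in GalTKO replicate 1) in a library.

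The TEAD core motif was searched in the promoters, a search added once the values were known, because the 2 members with the smallest p, Amotl2 and Lats2, are both known as target genes of YAP, TAZ and TEAD. RefSeq promoter windows on GRCm38.p6, from 250 bases before to 50 bases after a start, were matched by symbol for 7 of the 9 members (not Stk3 and Tead1). The motif was GGAATG, read on both strands, so that a site on the other strand reads CATTCC; it overlaps no other motif searched. At least 1 window held it for 5 of these 7 genes, against 14.6% of 11742 tested genes with a window and 14.7% of all 32851 windows. Stk4 and Lats1 had no match in these windows. The 5 sites follow with 12 flanking bases on each side, 5′ to 3′ on the strand of the gene, the motif in capitals.
Amotl2, chr9:102717727-102717756, plus strand: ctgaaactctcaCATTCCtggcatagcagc
Lats2, chr14:57746102-57746131, minus strand: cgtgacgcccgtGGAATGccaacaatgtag
Yap1, chr9:8004720-8004749, minus strand: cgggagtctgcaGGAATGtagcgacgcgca
Wwtr1, chr3:57576029-57576058, minus strand: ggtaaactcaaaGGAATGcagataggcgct
Sav1, chr12:69987091-69987120, minus strand: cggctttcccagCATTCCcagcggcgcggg
The motif of Amotl2 began 65 bases before the start, that of Yap1 141 bases before and that of Sav1 106 bases before. In Lats2 it lay just past the start of 1 of its 2 windows. A match of 6 letters is a description of the sequence and no evidence of binding. In the GENCODE annotation the sites of Yap1, Wwtr1 and Sav1 lie outside every transcript of the gene. The site of Amotl2 lies in untranslated exon sequence of 2 transcripts that begin further upstream, and that of Lats2 in untranslated exon sequence of 3 transcripts.

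Per length of exon, the coactivator gene Wwtr1 had the highest mean, and the kinase gene Lats2 the lowest when its whole exon length was used. Levels between genes were compared as RPKM, the CPM divided by the exon length in kilobases. Wwtr1 averaged 36.3 ± 2.09 RPKM in wildtype and 33.8 ± 3.28 RPKM in GalTKO ovaries (SD, n = 3), while its relative Yap1 averaged 18.2 ± 1.33 and 16.9 ± 0.532 RPKM. That gap rests on exon lengths of 4779 and 9257 bases, since by CPM they averaged 173.5 and 168.5 in wildtype ovaries. By CPM in wildtype ovaries, Tead1 and Lats1 averaged more than Wwtr1, at 193.8 and 194.0. Next to Wwtr1 came the scaffold gene Sav1, at 27.2 ± 4.88 RPKM in wildtype and 28.9 ± 5.39 RPKM in GalTKO ovaries, and Lats1, at 26.6 ± 2.79 and 24.3 ± 1.37 RPKM. Wwtr1, Sav1 and Lats1 follow each other in that order without a gap, since the range of each over the 6 libraries overlaps the next. All 6 values of Lats1, from 22.7 RPKM up, lay above all values of Yap1, which reached 19.7 RPKM. From Yap1 down through Tead1, Stk4, Amotl2 and Stk3, the range of each gene overlapped that of the next. Lats2, at 8.51 ± 0.509 RPKM in wildtype and 7.12 ± 0.723 RPKM in GalTKO ovaries, lay below Stk3, whose lowest value was 10.96 RPKM. That place rests on the length: Lats2 shares 2955 exon bases with Gm49361, and without them, a choice made after seeing the data, it averaged 14.8 ± 0.883 RPKM in wildtype and 12.4 ± 1.25 RPKM in GalTKO ovaries. Its mean was then above those of Amotl2 and Stk3, and its range overlapped those of Tead1, Stk4, Amotl2 and Stk3. Per length Lats2 stood above 63.7% of all tested genes by its whole length and above 76.9% without the shared bases, and Wwtr1 above 92.4%.

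**Figure D1:**
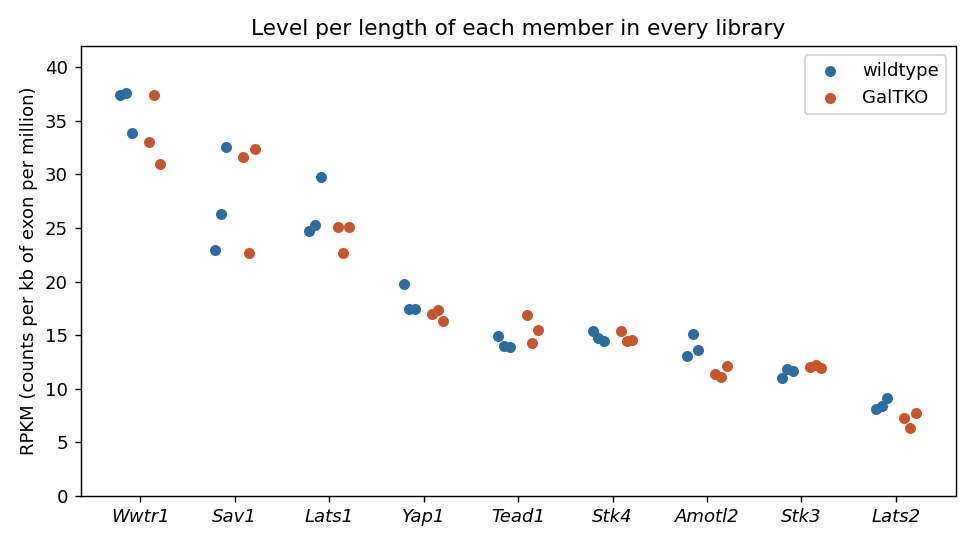
Level per exon length (RPKM, linear axis from 0) of the 9 members, ordered by their mean, with 1 point for each wildtype and GalTKO library. Wwtr1 reaches 37.6 RPKM, Lats2 by its whole exon length stays between 6.33 and 9.08 RPKM, and Sav1 has the widest scatter within a genotype.

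The comparison of genotypes asked whether transcripts of this pathway differ in ovaries that lack GALT under a galactose diet. None of the 9 members passed the threshold, a Benjamini-Hochberg adjusted p under 0.05 over all genes in edgeR's quasi-likelihood test, where 433 of 16957 genes (2.55%) passed, 1.13% higher and 1.43% lower in GalTKO ovaries. Before adjustment, 2 of the 9 had p under 0.05, Amotl2 and Lats2, both lower in GalTKO ovaries, against 17.1% of all genes tested, 8.19% higher and 8.9% lower. DESeq2 and limma voom also called 0 members, with 2 members each at an unadjusted p under 0.05. The smallest adjusted p was 0.162 in edgeR, 0.132 in DESeq2 and 0.156 in voom, each for Amotl2. Log2 fold changes of the 9 genes ran from -0.28 to 0.12 with a median of -0.10, beside a median of 0.02 over all genes tested. The 95% intervals of the 9 genes, each for 1 gene in the edgeR fit, reached from a fold of 0.713 (Lats2) to 1.40 (Sav1). These are separate intervals from 1 fit and give no joint bound over the 9 genes. Without GalTKO replicate 3, for example, the log2 fold change of Lats2 moved from -0.26 to -0.32. The values of the genotypes did not overlap for 4 members, 3 lower and 1 higher in GalTKO ovaries, where 23.7% of all genes tested did not overlap, 12% lower and 11.8% higher.

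Among the upstream kinases, the MST genes had values close to each other in both genotypes. On GRCm38, the build of all positions given here, Stk4 (ENSMUSG00000018209) lies on chromosome 2 from 164070322 to 164155524 on the plus strand. Stk3 (ENSMUSG00000022329) lies on chromosome 15 from 34875496 to 35178921 on the minus strand. Stk4, which encodes MST1, measured 90.0, 86.5 and 84.8 CPM in the wildtype libraries (replicates 1 to 3) and 90.2, 84.5 and 84.9 CPM in the GalTKO libraries in the same order. The groups overlapped throughout, and the log2 fold change came to -0.01 ± 0.08 (SE, 3 libraries per group; edgeR adjusted p = 0.967), with a 95% interval of the fold from 0.882 to 1.12. Stk3, which encodes MST2, measured 67.0, 72.2 and 71.2 CPM in the wildtype libraries and 73.4, 74.8 and 73.1 CPM in the GalTKO libraries. All 3 GalTKO values of Stk3 were above the wildtype ones by a small margin, for a log2 fold change of 0.07 ± 0.07 (edgeR adjusted p = 0.677). These were also the steadiest members: the SD of log2 CPM within a genotype was 0.0423 for Stk3 and 0.0483 for Stk4, values that 1.76% and 2.74% of tested genes undercut.

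Sav1, the scaffold that joins MST to LATS kinases, varied more between libraries of 1 genotype than between genotypes. Sav1 (ENSMUSG00000021067) lies on chromosome 12 from 69965012 to 69987002 on the minus strand. Sav1 measured 120.6, 138.4 and 171.2 CPM in the wildtype libraries (replicates 1 to 3) and 166.7, 119.5 and 170.4 CPM in the GalTKO libraries in the same order. Wildtype replicate 1 and GalTKO replicate 2 were low, wildtype replicate 3 and the other two GalTKO libraries were high, and the groups overlapped. Its log2 fold change came to 0.09 ± 0.17 (SE, 3 libraries per group; edgeR adjusted p = 0.848), which became -0.03 when wildtype replicate 1 was left out and 0.23 when GalTKO replicate 2 was. The SD of log2 CPM within a genotype was 0.271, larger than that of 64.6% of tested genes. Sav1 shares 1336 exon bases with Atl1 on the opposite strand. Atl1 held from 5.84 to 7.41 CPM in the 6 libraries, a far lower level than Sav1.

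Of the LATS kinase genes, Lats2 had the lower p. Lats2 (ENSMUSG00000021959) lies on chromosome 14 from 57689662 to 57758388 on the minus strand. Lats1 (ENSMUSG00000040021) lies on chromosome 10 from 7681214 to 7716460 on the plus strand. Lats2 measured 56.5, 58.1 and 63.3 CPM in the wildtype libraries (replicates 1 to 3) and 50.7, 44.1 and 54.0 CPM in the GalTKO libraries in the same order. Every GalTKO value was below every wildtype value, and GalTKO replicate 2 was the lowest. Its log2 fold change came to -0.26 ± 0.10 (SE, 3 libraries per group; edgeR unadjusted p = 0.0323, adjusted p = 0.243), a fold of 0.836 with a 95% interval from 0.713 to 0.981. Lats1 measured 180.4, 184.3 and 217.5 CPM in the wildtype libraries and 182.8, 165.5 and 182.9 CPM in the GalTKO libraries. The groups overlapped, with wildtype replicate 3 above all others, and the log2 fold change was -0.13 ± 0.10 (edgeR adjusted p = 0.551), or -0.04 without wildtype replicate 3. The bases that Lats2 shares with Gm49361 are on the same strand, and the sources used here do not give the handling of reads in shared bases. Only 4 counts in all were assigned to Gm49361.

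The coactivator genes had close values in both genotypes. Yap1 (ENSMUSG00000053110) lies on chromosome 9 from 7931999 to 8004596 on the minus strand. Wwtr1 (ENSMUSG00000027803) lies on chromosome 3 from 57455649 to 57575910 on the minus strand. Yap1 measured 182.8, 161.4 and 161.4 CPM in the wildtype libraries (replicates 1 to 3) and 157.3, 160.3 and 150.6 CPM in the GalTKO libraries in the same order. The GalTKO values lay just below the wildtype ones, with wildtype replicate 1 apart from the rest, and the log2 fold change came to -0.11 ± 0.08 (SE, 3 libraries per group; edgeR adjusted p = 0.558). It was -0.05 without wildtype replicate 1. Wwtr1 measured 178.8, 179.7 and 162.0 CPM in the wildtype libraries and 157.9, 178.7 and 148.0 CPM in the GalTKO libraries. GalTKO replicate 2 matched the high wildtype libraries, so the groups overlapped, and the log2 fold change was -0.10 ± 0.10 (edgeR adjusted p = 0.644). Leaving out GalTKO replicate 2 moved Wwtr1 to -0.18, while leaving out GalTKO replicate 3 moved it to -0.04. The fold of Yap1 had a 95% interval from 0.811 to 1.06 and that of Wwtr1 one from 0.80 to 1.08.

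Tead1, whose product carries YAP and TAZ to DNA, measured 202.7, 190.1 and 188.5 CPM in the wildtype libraries (replicates 1 to 3) and 229.5, 193.1 and 209.4 CPM in the GalTKO libraries in the same order. GalTKO replicate 2 lay inside the wildtype range, so the groups overlapped, and the log2 fold change came to 0.12 ± 0.09 (SE, 3 libraries per group; edgeR adjusted p = 0.551). Without GalTKO replicate 1, the highest library, it was 0.05. Tead1 (ENSMUSG00000055320) lies on chromosome 7 from 112679318 to 112906807 on the plus strand.

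Amotl2, an angiomotin that binds YAP in the cytoplasm and activates LATS kinases, had the smallest p of the 9 members. Amotl2 (ENSMUSG00000032531) lies on chromosome 9 from 102716672 to 102733418 on the plus strand. Amotl2 measured 81.8, 95.03 and 85.6 CPM in the wildtype libraries (replicates 1 to 3) and 71.2, 69.5 and 76.3 CPM in the GalTKO libraries in the same order. All GalTKO values were below all wildtype values. Its log2 fold change came to -0.28 ± 0.09 (SE, 3 libraries per group; edgeR unadjusted p = 0.0131, adjusted p = 0.162), a fold of 0.826 with a 95% interval from 0.719 to 0.950. Its adjusted p ran from 0.132 to 0.409 over 14 alternative fits. The other angiomotin genes gave no difference past the threshold: Amot stood at a log2 fold change of -0.12 ± 0.08 and Amotl1 at 0.11 ± 0.09, or 0.04 without GalTKO replicate 1. Angiomotins are also active in blood vessel cells, and endothelial markers differed in the same direction as Amotl2. Each of the 8 endothelial markers lay below 0 on the log2 scale (median -0.38). Of these, 2 passed the threshold, Kdr and Pecam1, where 2.55% of all genes tested did. None of the 8 was at 0, and their summed level was 536 to 672 CPM in wildtype and 429 to 479 CPM in GalTKO libraries. Their part in the values of Amotl2 was not tested. In whole ovaries, fewer cells of a type and less RNA per cell cannot be told apart.

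**Figure D2:**
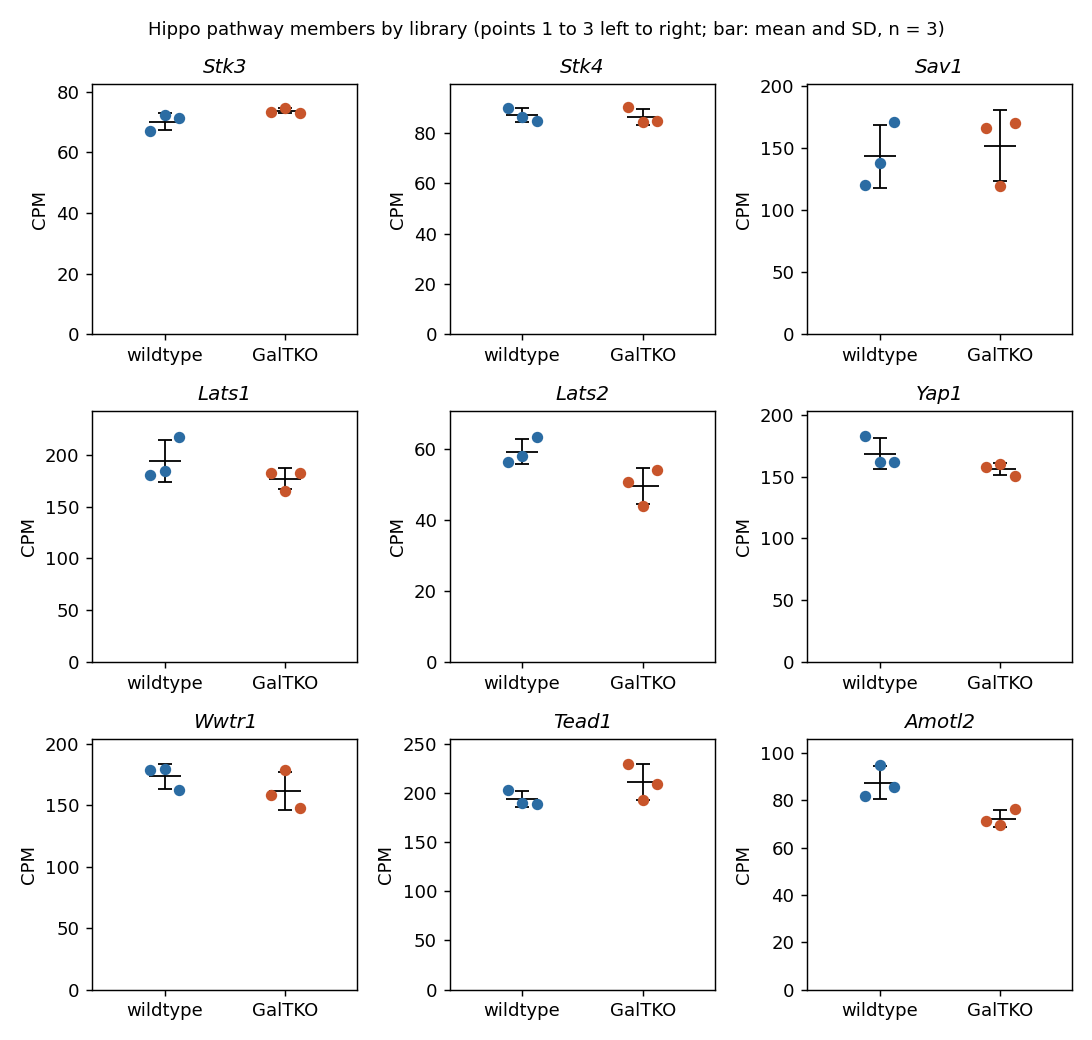
CPM (linear axes from 0) of each member in the 3 wildtype and 3 GalTKO libraries, with mean and SD. Lats2 and Amotl2 show GalTKO points below all wildtype points, Stk3 lies between 67.0 and 74.8 CPM, and Sav1 spreads from 119.5 to 171.2 CPM across both genotypes.

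The genes whose pattern over the 6 libraries was most like that of Amotl2 and Lats2 were found by the root mean square difference of log2 CPM, each gene centred on its own mean, among 13923 protein-coding genes. For Amotl2 they were Osbpl8, Smagp and Defb19, with differences of 0.0362, 0.0439 and 0.0470 against a spread of Amotl2 itself of 0.156. For Lats2 they were Zfp784, Kif3c and Ercc6l2, with differences of 0.0182, 0.0312 and 0.0350 against a spread of 0.164. None of these 6 genes passed the threshold between genotypes. They were chosen for likeness to members that did not pass, so this is no separate result. The level of Zfp784 was low, at 2.80 to 4.16 CPM. Likeness over 6 libraries is a description and says nothing of shared function.

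Pairs of related genes were also set against each other within each library, as a ratio that does not depend on how libraries are scaled. The size of such a ratio depends on the exon lengths used, while its difference between genotypes does not. Per exon length, Yap1 was at 0.528, 0.464 and 0.514 of Wwtr1 in wildtype replicates 1 to 3 and at 0.514, 0.463 and 0.526 in GalTKO replicates 1 to 3. The groups covered the same range, and the log2 ratio differed by -0.003 (two-sided exact permutation test, p = 0.8, adjusted p = 0.8 over 3 ratios). Lats1 exceeded Lats2 by a factor of 3.05, 3.03 and 3.28 in wildtype and 3.45, 3.58 and 3.23 in GalTKO libraries. GalTKO replicate 3 lay below wildtype replicate 3, so the groups overlapped, and the log2 ratio was 1.64 ± 0.06 in wildtype and 1.77 ± 0.07 in GalTKO ovaries (SD, n = 3; exact permutation p = 0.2, adjusted p = 0.6). If the bases shared with Gm49361 are left out of the length of Lats2, a choice made after seeing the data, the factor lies between 1.74 and 2.06 and the difference between genotypes is the same. Stk3 was at 0.714, 0.800 and 0.805 of Stk4 in wildtype and 0.780, 0.848 and 0.825 in GalTKO libraries (exact permutation p = 0.4, adjusted p = 0.6). The smallest p that 3 against 3 libraries allow is 0.1, so no ratio could pass the threshold.

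**Figure D3:**
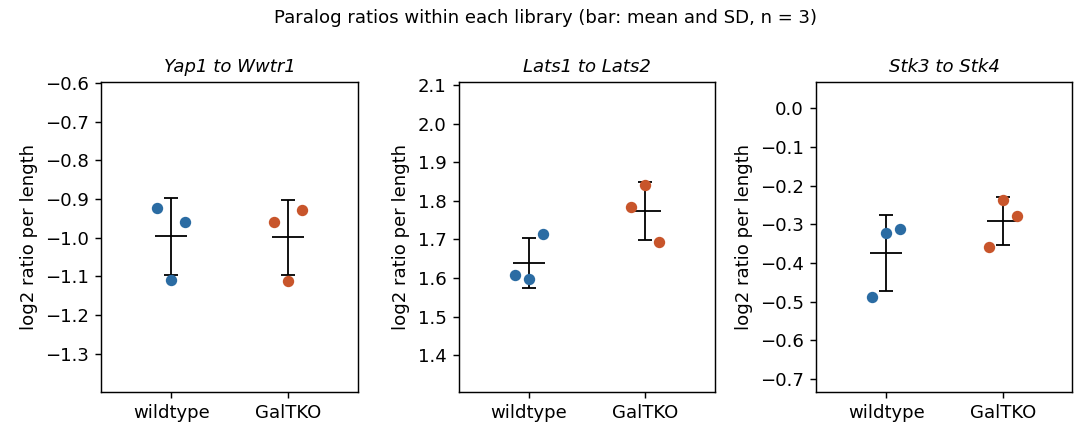
Log2 ratio per exon length of 3 pairs of related genes in each library, with mean and SD for 3 libraries per genotype; each vertical axis covers the same span but does not start at 0. The Lats1 to Lats2 ratio averages 1.64 in wildtype and 1.77 in GalTKO ovaries with overlapping points, and the points of the Yap1 to Wwtr1 ratio overlap as well.

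Of the wider pathway, 1 gene passed the threshold, where 2.55% of all genes tested did. That gene, Rassf2, encodes a protein that binds the MST kinases through a shared domain. Rassf2 measured 98.4, 95.9 and 94.8 CPM in the wildtype libraries (replicates 1 to 3) and 58.9, 59.2 and 62.4 CPM in the GalTKO libraries in the same order. The 2 groups were far apart beside the spread within them, and the log2 fold change came to -0.68 ± 0.07 (SE, 3 libraries per group; edgeR adjusted p = 0.00307), a fold of 0.624. It passed in all 14 alternative fits, with log2 fold changes from -0.71 to -0.66 and adjusted p up to 0.0261. Rassf2 is also active in blood cells, and all 8 macrophage markers lay below 0 on the log2 scale (median -0.68). Summed, those markers held 409 to 497 CPM in wildtype and 256 to 285 CPM in GalTKO libraries, none was at 0, and 5 passed the threshold (Csf1r, Mpeg1, C1qb, Lyz2 and Ctss). Their part in the value of Rassf2 was not tested. The related gene Rassf6 stood at 0.92 ± 0.38 without passing (edgeR adjusted p = 0.266), at levels of 0.910 to 4.48 CPM.

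Rassf2 was 1 of 52 tested genes in a list of pathway regulators and kinase partners, of which 0 rose, 1 fell and 51 did not pass. Over all genes tested 2.55% passed, so 1 call among 52 genes is no more than that background. Before adjustment 8 of the 52 had p under 0.05, 1 higher and 7 lower, beside 17.1% of all genes tested (8.19% higher, 8.9% lower), so the count of 8 is near that background. In this list 22 log2 fold changes were positive and 30 negative, with a median of -0.04. After Rassf2 the smallest p belonged to Limd1 and Ajuba, whose products are LIM proteins that hold back LATS kinases, at -0.28 ± 0.08 and -0.28 ± 0.10 (adjusted p = 0.139 and 0.213 in edgeR). Mark4, a microtubule affinity kinase, stood at -0.32 ± 0.12, and Mob4, a subunit of the phosphatase complex that restrains MST kinases, at -0.35 ± 0.14. Without wildtype replicate 3 they stood at -0.18 and -0.19. Mob1a, a direct activator of LATS kinases, measured 213.1, 192.5 and 201.7 CPM in the wildtype libraries and 182.4, 165.5 and 176.9 CPM in the GalTKO libraries. Its GalTKO values were all below the wildtype ones, for a log2 fold change of -0.21 ± 0.08 (edgeR adjusted p = 0.242), and its relative Mob1b stood at -0.21 ± 0.10. Of the 14 alternative fits, Mark1 passed only without GalTKO replicate 2, at 0.61 (adjusted p = 0.0387), against 0.40 ± 0.22 with all libraries (adjusted p = 0.421). Leaving out GalTKO replicate 1 instead gave Mark1 a value of 0.14 (adjusted p = 0.727). Nf2, which brings LATS kinases to the membrane, stood at -0.13 ± 0.09, and the MST-activating kinase gene Taok1 at -0.20 ± 0.09. The relatives of Taok1 went the other way, Taok2 at 0.13 ± 0.07 and Taok3 at 0.18 ± 0.09, neither past the threshold.

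Of the nuclear partners, edgeR called 0 of 10 tested genes (2 had an unadjusted p under 0.05, beside 17.1% of all genes). For the same genes voom called 0 and DESeq2 called 1, Runx2, where DESeq2 called 1044 of all 16957 genes tested. The median log2 fold change was 0.05. Runx2, a transcription factor that can pair with YAP and TAZ and that the ovulatory surge also induces, measured 259.2, 312.8 and 424.9 CPM in the wildtype libraries (replicates 1 to 3) and 153.5, 135.5 and 252.1 CPM in the GalTKO libraries in the same order. The groups did not overlap, though the highest GalTKO and the lowest wildtype library were close. Its log2 fold change came to -0.88 ± 0.28 (SE, 3 libraries per group; edgeR adjusted p = 0.183), and DESeq2 called it at -0.89 (adjusted p = 0.0103). The adjusted p of Runx2 ran from 0.0103 to 0.448 over the alternative fits. The sister genes of Tead1 did not pass: Tead2 stood at 0.09 ± 0.11, Tead3 at 0.25 ± 0.11 and Tead4 at 0.02 ± 0.26. Per length Tead2 had the highest level of the 4 TEAD genes, on average 19.5 RPKM in wildtype and 20.8 RPKM in GalTKO ovaries. Tead1 averaged 14.3 and 15.5 RPKM, Tead3 2.79 and 3.32 RPKM and Tead4 0.66 and 0.67 RPKM. The place of Tead2 above Tead1 rests on exon length. By CPM, Tead1 averaged 193.8 in wildtype and 210.7 in GalTKO ovaries, against 93.2 and 99.4 for Tead2. Pdlim7 stood at 0.30 ± 0.13, Wbp2, a binding partner of YAP and TAZ, at -0.16 ± 0.12, and Vgll4, which competes with YAP for TEAD, at -0.11 ± 0.11. With 1 library left out, Pdlim7 ran from 0.17 (without GalTKO replicate 1) to 0.39, Wbp2 from -0.29 (without GalTKO replicate 2) to -0.09 (without GalTKO replicate 3) and Vgll4 from -0.22 (without GalTKO replicate 1) to -0.02 (without GalTKO replicate 2).

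Target genes of YAP and TAZ gave no common direction. Of 20 tested targets, which include Lats2 and Amotl2, edgeR called 0, although 6 had p under 0.05 before adjustment, 2 higher and 4 lower, beside 17.1% of all genes tested (8.19% higher, 8.9% lower). Voom called 0 and DESeq2 called 2, where DESeq2 called 1044 of all 16957 genes tested. There were 9 positive and 11 negative log2 fold changes, with a median of -0.05. Nuak2, a kinase gene that YAP induces, measured 3.88, 4.95 and 5.24 CPM in the wildtype libraries and 11.2, 5.44 and 9.47 CPM in the GalTKO libraries. GalTKO replicate 2 lay close to the wildtype values while the other two were higher, and the log2 fold change was 0.89 ± 0.27 (edgeR adjusted p = 0.149). It passed without GalTKO replicate 2 (1.14, adjusted p = 0.0188), in DESeq2 (0.89, adjusted p = 0.0414) and when all genes with any count were kept (0.88, adjusted p = 0.0352).

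Igfbp3, an IGF-binding protein gene, measured 50.9, 54.8 and 64.2 CPM in the wildtype libraries and 43.7, 17.4 and 22.7 CPM in the GalTKO libraries. GalTKO replicate 1 was nearer to wildtype than the other two, and the log2 fold change came to -1.02 ± 0.33 (SE, 3 libraries per group; edgeR adjusted p = 0.199). Igfbp3 passed without GalTKO replicate 1 (-1.50, adjusted p = 0.0057) and in DESeq2 (-1.02, adjusted p = 0.0105). Dock5 stood at -0.43 ± 0.16 and Nt5e at 0.55 ± 0.24, neither past the threshold. The targets most used as readouts of YAP, named here outside the naming rule, spread widely within a genotype. Ccn2 measured 107.8, 134.0 and 43.4 CPM in the wildtype libraries and 104.3, 66.2 and 92.0 CPM in the GalTKO libraries, and Ccn1 held 27.5, 35.6 and 19.2 CPM and 33.6, 25.8 and 22.5 CPM. Both were lowest in wildtype replicate 3 and the groups overlapped, with log2 fold changes of -0.12 ± 0.42 for Ccn2 and -0.01 ± 0.24 for Ccn1. The 95% interval of the fold of Ccn2 ran from 0.449 to 1.89, so these libraries bound that gene only loosely. Ankrd1 and Foxf2 had too few counts to be tested, at no more than 0.232 and 0.0433 CPM in any library.

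**Figure D4:**
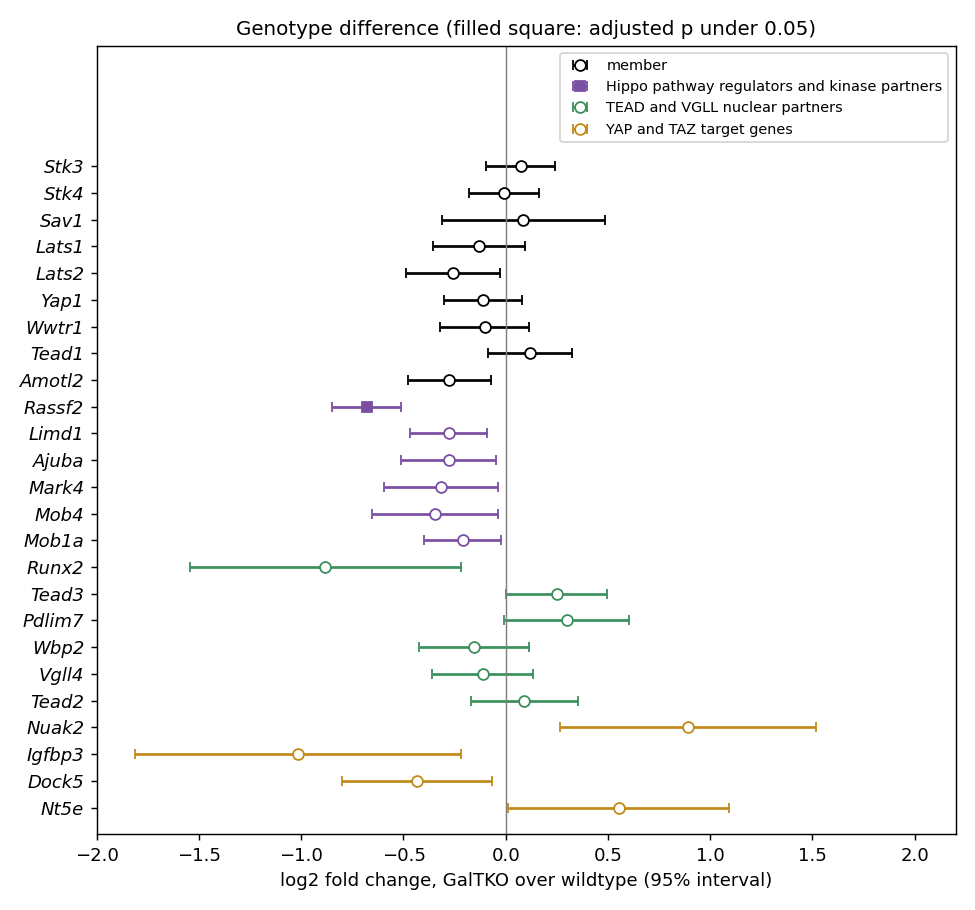
Log2 fold change of GalTKO over wildtype with its 95% interval for the 9 members and for the listed genes with the smallest p; the filled square marks an adjusted p under 0.05 in edgeR. Rassf2 alone is filled, at -0.68, while the intervals of Lats2 and Amotl2 exclude 0 without passing the adjustment.

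**Figure D5:**
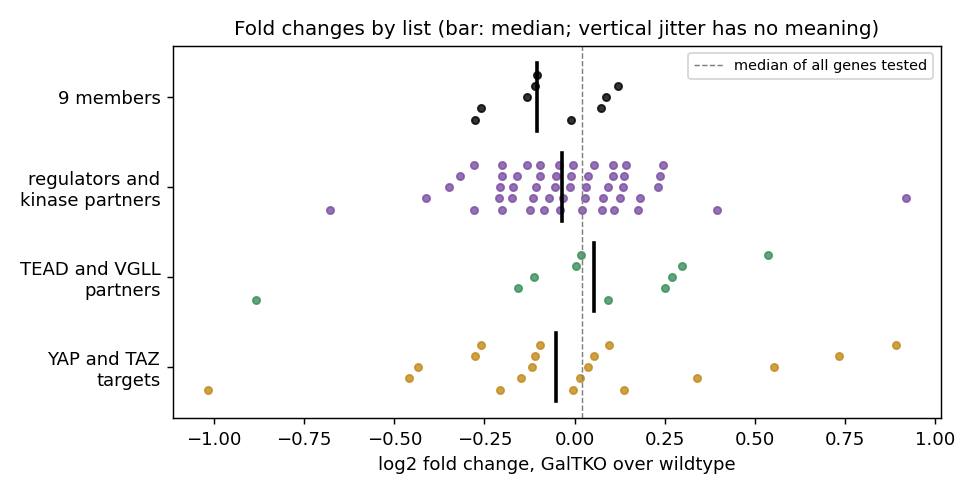
Log2 fold changes of the 9 members and of the 3 pathway lists, 1 point per tested gene, with the median of each list as a bar and that of all genes tested as a dashed line. The list medians lie between -0.10 and 0.05, next to 0.02 for all genes.

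Markers of the other cell types in the ovary were counted as well. Over all genes tested, 2.55% passed the threshold in edgeR and 17.1% had p under 0.05 before adjustment. Summed over 10 theca and luteal markers, libraries held 15822 to 22115 CPM in wildtype and 9311 to 15289 CPM in GalTKO ovaries. Of these 10, Star passed the threshold, lower in GalTKO ovaries. Their log2 fold changes, 7 negative and 3 positive, had a median of -0.65. The positive ones were Cyp17a1 at 0.92 ± 1.20, Insl3 at 0.96 ± 0.45 and Akr1c18 at 0.53 ± 0.92, none past the threshold. The summed level therefore does not stand for every marker of this list. Before adjustment 5 of the 10 had p under 0.05 in edgeR, all lower. Granulosa markers, from the cells in which the pathway is best known in the ovary, held 8327 to 9905 CPM in wildtype and 8445 to 10207 CPM in GalTKO ovaries. Their median log2 fold change was -0.04, and 2 of 10 passed the threshold in opposite directions, Amh higher and Nr5a2 lower. In edgeR 5 of these 10 had p under 0.05 before adjustment, 2 higher and 3 lower. The 10 oocyte markers had a median of -0.08 and edgeR called 0 of them, with 3 at p under 0.05 before adjustment. The 8 smooth muscle and pericyte markers had a median of 0.11, with Rgs5 lower and 1 at p under 0.05 before adjustment in edgeR. The 8 stromal fibroblast markers had a median of -0.09 and edgeR called none of them, with 0 at p under 0.05 before adjustment. The 8 surface epithelium markers had a median of 0.13, with Krt8 higher and 3 at p under 0.05 before adjustment in edgeR, all higher. Of the 12 markers called in all the lists, Ctss, Kdr and Mpeg1 passed in each of the 14 alternative fits, and the other 9 missed the threshold in at least 1 fit that left out a library. The part of these cell types in the values of the 9 members was not tested.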

How the data were processed

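Stranded libraries of total RNA from frozen ovaries were made after ribosomal depletion, per the labels' protocols, so unspliced RNA is counted too. The authors' deposited table gives raw counts by Ensembl identifier. Per the submitters' processing notes, cutadapt 1.16, STAR 2.7.6a, featureCounts 1.6.3, DESeq2 1.30.1 and GRCm38 were used; the sources used here give neither their roles nor the annotation or strand setting.

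Symbols, coordinates and exon lengths came from GENCODE M21, which matched 55227 of 55487 identifiers. Samples were grouped by title. No 2 libraries agreed within sampling noise (chi-square per degree of freedom at least 8.81). In R 4.3.3, edgeR 4.0.16 kept genes by filterByExpr (minimum count 10, minimum total 15), scaled by TMM and fitted a robust quasi-likelihood model with genotype on all 6 libraries; p-values are two-sided, SE is the fold change over the root of F, and intervals are at 95%. CPM and RPKM use TMM-scaled library sizes and union exon length. The common biological coefficient of variation was 17.4%. Paralog ratios were compared by exact permutation. Alternatives were 2 other scalings, DESeq2 1.42.0, limma 3.58.1 voom, 2 other filters, a replicate block, protein-coding genes alone, a threshold of 0.1 and each library left out. Python 3.11.15, scipy 1.17.1 and matplotlib 3.10.9 were used.

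The gene fit was tested on data simulated for the GalTKO against wildtype comparison (16957 genes). It recovered 14% of 100 planted 1.5-fold changes and 67% of 100 planted 2-fold changes, with 10 false among 91 calls. The members, the 3 pathway lists and the 8 marker lists were chosen with earlier results of these data known. Listed symbols Frmd1 and Tp73 matched no gene. Named genes are the 9 members, Galt, every called gene and the 6 smallest p of each pathway list, and the 3 genes most like each of the 2 members with the smallest p. Others (Mob1b, Nf2, Taok1, Taok2, Taok3, Mark1, Rassf6, Amot, Amotl1, Tead4, Ccn1, Ccn2, Ankrd1, Foxf2, Atl1, Cyp17a1, Insl3, Akr1c18 and called cell type markers) were named after their values were seen.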

Additional observations from a re-analysis of the deposited data

How the results depend on the processing

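In each of 14 alternative fits and at an adjusted p of 0.1, 0 of the 9 members passed. Over 55 single genes, 703 of 770 alternative values kept their direction and their side of the threshold. The number of genes called, 433, became 1044 in DESeq2, 877 with no filter on low counts, 260 among protein-coding genes alone, 761 at an adjusted p of 0.1, and 165 (without wildtype replicate 2) to 742 (without GalTKO replicate 2) with a library left out; it moved over 1.5 times for each library but GalTKO replicate 3. Calls among regulators ran from 1 to 2 with a library left out. Nuclear partners had 1 call in DESeq2 and 1 with the replicate block, both Runx2. Targets had 2 calls in DESeq2, 1 with no filter, and 0 to 1 with a library left out.

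Values near 0 changed sign. With a library left out, the log2 ratio of Yap1 to Wwtr1 ran from -0.058 to 0.053, and log2 fold changes from -0.026 to 0.23 for Sav1, -0.040 to 0.014 for Stk4, -0.041 to 0.16 for Tead2, -0.16 to 0.12 for Tead4, -0.21 to 0.22 for Ccn1 and -0.47 to 0.21 for Ccn2. Upper-quartile scaling gave 0.014 for Stk4 and 0.015 for Ccn1. The cause was not tested.

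With the replicate number as a block, 321 genes were called, Runx2 stood at -0.90 (adjusted p = 0.0248) and Ccn1 at 0.016. Same-numbered libraries share only a number: their deviations correlated at 0.093, -0.040 and 0.078 across genes, and not every library correlated best with its own number. With 3 libraries per genotype, 14 of 100 simulated 1.5-fold changes were recovered; differences of the size seen in Amotl2 and Lats2 are smaller than that.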
